A study of Aspergillus nidulans with 9 samples.

Results

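The genes described here take ammonium into the hyphae of *Aspergillus nidulans* and build it into glutamate and glutamine. They are 6 rows of a table of 10988 genes, listed by identifier: the ammonium transporter genes *meaA* (AN7463) and *mepA* (AN1181), the glutamate dehydrogenase genes *gdhA* (AN4376) and *gdhB* (AN7451), the glutamate synthase gene *gltA* (AN5134) and the glutamine synthetase gene *glnA* (AN4159). RNA was sequenced from vegetatively grown cells (Vege) of wild type (WT), a *veA* deletion strain (Δ*veA*) and a *laeA* deletion strain (Δ*laeA*), with 3 libraries per strain and 9 in all. VeA is a velvet family protein that enters the nucleus in the dark, and LaeA is a global regulator of secondary metabolism that acts with it. All strains were grown in liquid minimal medium with 1% glucose at 37 °C and 220 rpm for 24 h in the dark. The methods also mention appropriate supplements, without naming them or saying which strain had them. The strain list of the study gives Δ*veA::argB* for the *veA* mutant, and for the *laeA* mutant Δ*laeA::methG* in a *methG1* background with *veA* present. The nitrogen source of the medium is not named in the labels or the methods, and neither source says if a strain was cultured separately for each library. The p-values given here then measure the spread between these libraries, which may be technical.

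Fungi prefer ammonium and glutamine to most other sources of nitrogen, and ammonium crosses the plasma membrane through permeases of the Mep/Amt family. Inside the cell, ammonium is joined to 2-oxoglutarate by the NADP-dependent glutamate dehydrogenase to give glutamate, and glutamine synthetase adds a further ammonium to glutamate to give glutamine. Glutamate synthase returns the amide group of glutamine to 2-oxoglutarate, whereas the NAD-dependent glutamate dehydrogenase works mainly in the breakdown of glutamate. The GATA factor AreA activates many genes of nitrogen use when preferred sources are scarce.

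Reads counted on genes ranged from 13396869 to 35755046 per library. The genes of this pathway were well covered, with 2057 counts for *gdhB* in Δ*laeA* replicate 1 as the lowest value and 200413 counts for *glnA* in Δ*veA* replicate 1 as the highest. Values are given as CPM (counts scaled to the same effective library size by TMM normalization). No gene length was used, so that levels are compared between strains and not between genes. *veA* (AN1052) was read in WT at 107.6 to 116 CPM, and the libraries labelled Δ*veA* held more, 773 to 815 CPM. This goes against the label, so that Δ*veA* stands in every comparison for libraries with this label only. *laeA* (AN0807) had 34.2 to 37.95 CPM in WT, against 4.96 to 6.61 CPM for the label Δ*laeA*. Which part of either gene the reads came from is not seen in a count per gene.

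All 6 genes were tested, and in each of the 3 comparisons (Δ*veA* with WT, Δ*laeA* with WT and both mutants with each other) all of them differed at an adjusted p under 0.05, in 18 of 18 tests (quasi-likelihood test of edgeR, adjusted over every gene tested and written as the edgeR adjusted p, with SE for the standard error of a log2 fold change). This threshold was passed by 80.2%, 73.4% and 70.1% of the 9481 genes tested, in that order, so that passing it is common in these data. In Δ*veA* 5 of the 6 genes were higher and 1 lower than in WT, beside 40.1% and 40.0% of all genes, and in Δ*laeA* 5 were higher and 1 lower, beside 36.6% and 36.8%. Between the mutants, 3 were higher and 3 lower in Δ*veA*, beside 36.5% and 33.6%. In all 18 tests the libraries of the groups compared did not overlap, as for 80.4%, 75.3% and 71.3% of all genes. A DEG also had to change by more than 2-fold, the threshold of the study. With the label Δ*veA*, 3 of the 6 genes were DEGs that rose (*meaA*, *gdhA* and *gltA*) and 0 were DEGs that fell. The share among all genes was 33.6% for DEGs in either direction, 13.6% for those that rose and 19.9% for those that fell. With the label Δ*laeA*, *meaA* was the DEG among the 6, and it rose, against 24.4% in either direction, 9.90% higher and 14.5% lower among all genes. The median log2 fold change of the 6 genes was 0.79 (Δ*veA*) and 0.83 (Δ*laeA*), beside 0.0012 and -0.0041 for all genes tested. Both comparisons use the same WT libraries. Fewer cells of a type and less RNA per cell cannot be told apart in these bulk samples.

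**Figure D1:**
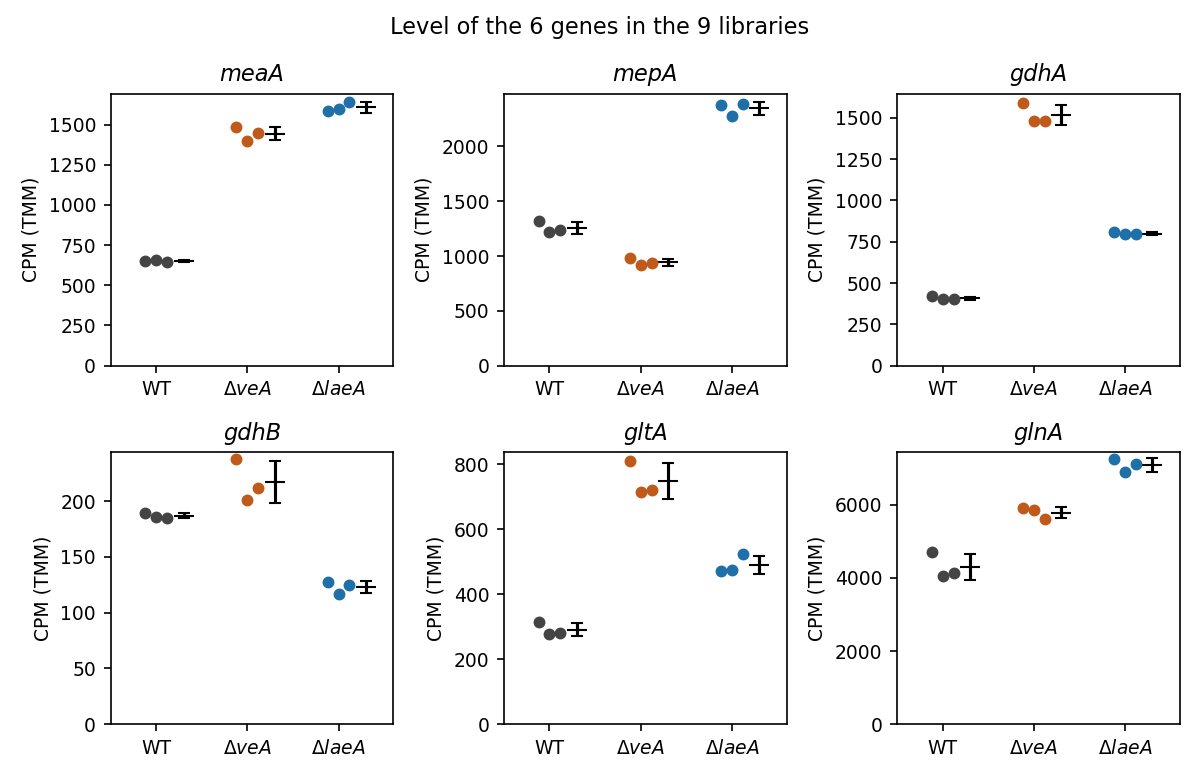
CPM after TMM normalization of each gene (vertical axis, from 0) for 3 libraries each of WT and the labels Δ*veA* and Δ*laeA* (points), with the mean and the SD beside them (bars). *meaA*, *gdhA*, *gltA* and *glnA* are lowest in WT, *mepA* is lowest in Δ*veA* and *gdhB* is lowest in Δ*laeA*.

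The ammonium transporter gene *meaA* rose in both mutants. MeaA is the permease through which *A. nidulans* takes up most of its ammonium when ammonium is plentiful. *meaA* had 649, 658 and 646 CPM in WT replicates 1 to 3. Replicates 1 to 3 labelled Δ*veA* had 1485, 1400 and 1445 CPM, and those labelled Δ*laeA* had 1581, 1594 and 1643 CPM. Every mutant library was thus above every WT library, and the libraries labelled Δ*laeA* were above those labelled Δ*veA*. The log2 fold change against WT was 1.15 in Δ*veA* (SE 0.042, edgeR adjusted p = 3.19e-22) and 1.30 in Δ*laeA* (SE 0.0425, edgeR adjusted p = 1.88e-23). Scaling by library totals alone brought these values below 2-fold, to 0.89 and 0.98. The mutants differed from each other by -0.15 on the log2 scale (Δ*veA* against Δ*laeA*, edgeR adjusted p = 0.00159), a difference that did not pass the test with library totals alone (edgeR adjusted p = 0.0539).

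The second transporter gene, *mepA*, moved in opposite directions. MepA is a high-affinity ammonium permease, which serves uptake when ammonium is scarce. *mepA* had 1317, 1216 and 1238 CPM in WT, and the replicates labelled Δ*veA* fell below it with 978, 917 and 932 CPM. With the label Δ*laeA* it rose to 2375, 2278 and 2388 CPM. WT thus lay between the mutants, without overlap on either side. The log2 fold change against WT was -0.415 in Δ*veA* (SE 0.044, edgeR adjusted p = 3.07e-10) and 0.90 in Δ*laeA* (SE 0.044, edgeR adjusted p = 1.33e-18), neither of which reached 2-fold. Set directly against each other, the mutants differed by -1.32 on the log2 scale, or 2.49-fold (SE 0.0445, edgeR adjusted p = 6.29e-23). *mepA* was the DEG among the 6 genes in this comparison, in which 18.4% of all genes were DEGs, with 6.74% higher and 11.6% lower in Δ*veA*. Its direction in each comparison was the same with library totals alone (-0.68, 0.58 and -1.25).

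The glutamate dehydrogenase genes, whose enzymes work in the synthesis and in the breakdown of glutamate, had different patterns. *gdhA*, which encodes the NADP-dependent enzyme of glutamate synthesis, had the largest fold change of the 6 genes. WT had 419, 402 and 403 CPM, and the replicates labelled Δ*veA* had 1587, 1479 and 1482 CPM. *gdhA* thus rose 3.72-fold there, with a log2 fold change of 1.90 (SE 0.0445, edgeR adjusted p = 8.89e-28). With the label Δ*laeA*, 809, 794 and 795 CPM were read. These values lie above every WT library and below every library labelled Δ*veA*. The log2 fold change was 0.97 in Δ*laeA* (SE 0.044, edgeR adjusted p = 1.38e-19), close to the 2-fold threshold and short of it. The mutants differed by 0.92 on the log2 scale (edgeR adjusted p = 6.11e-19).

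*gdhB*, which encodes the NAD-dependent enzyme, had 189.5, 186 and 185 CPM in WT. The replicates labelled Δ*veA* had 238, 201 and 212 CPM, and 127.5, 117 and 125 CPM were read in those labelled Δ*laeA*. It fell in Δ*laeA* by a log2 fold change of -0.60 (SE 0.055, edgeR adjusted p = 1.47e-11), and no library of this group overlapped with WT. In Δ*veA* its log2 fold change was 0.22 (SE 0.054, edgeR adjusted p = 0.000436), the smallest change against WT among the 6 genes. With library totals alone, which moved the median of all genes from 0.0012 to -0.26, the value was -0.042 and did not pass the test (edgeR adjusted p = 0.476). It was 0.13 without Δ*veA* replicate 1, the highest of its group (edgeR adjusted p = 0.0167). The mutants differed by 0.82 on the log2 scale (edgeR adjusted p = 9e-15). In the RefSeq gene list, 12 entries stand between *gdhB* and *meaA*, and their distance on the chromosome was not measured.

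*gltA* and *glnA* encode the enzymes of the cycle in which glutamine is made and its amide group is passed on to 2-oxoglutarate. *gltA*, the glutamate synthase gene, had 316, 278 and 279.6 CPM in WT, 811, 714 and 720.3 CPM with the label Δ*veA*, and 472, 474 and 523 CPM with the label Δ*laeA*. The order WT, Δ*laeA*, Δ*veA* was that of *gdhA*, again with no overlap between groups. The log2 fold change was 1.36 in Δ*veA* (SE 0.055, edgeR adjusted p = 1.89e-20) and 0.75 in Δ*laeA* (SE 0.055, edgeR adjusted p = 1.3e-13). The mutants differed by 0.61 (edgeR adjusted p = 1.69e-11). *gltA* was still a DEG in Δ*veA* with library totals alone (1.10).

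*glnA*, the glutamine synthetase gene, rose in both mutants by less than 2-fold. It had 4715, 4054 and 4142 CPM in WT, 5903, 5848 and 5601 CPM with the label Δ*veA*, and 7254, 6888 and 7125 CPM with the label Δ*laeA*. The highest values were thus in Δ*laeA*, as for both transporter genes and unlike *gdhA* and *gltA*. The log2 fold change was 0.43 in Δ*veA* (SE 0.048, edgeR adjusted p = 9.69e-10) and 0.72 in Δ*laeA* (SE 0.048, edgeR adjusted p = 4.48e-15). The mutants differed by -0.29 (edgeR adjusted p = 2e-06). The study places *glnA* in the core section of its VeA network, whose genes are direct or putative direct targets. Both kinds of target have VeA binding in the promoter region. Binding was not examined here.

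**Figure D2:**
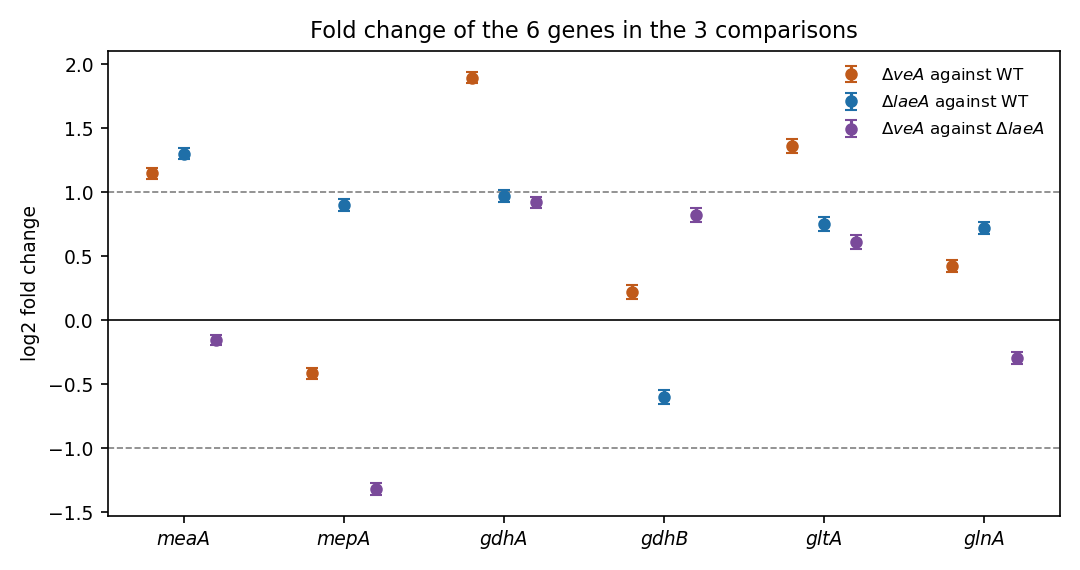
Log2 fold change (vertical axis) of the 6 genes for Δ*veA* against WT, Δ*laeA* against WT and Δ*veA* against Δ*laeA*, by label, with the standard error as bars and dashed lines at 2-fold. *gdhA* in Δ*veA* is the highest point at 1.90 and *mepA* between the mutants the lowest at -1.32.

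Ratios of counts within a library do not depend on how libraries are scaled to each other, and 4 of them were read. A comparison of 3 libraries with 3 cannot give a p below 0.1 in the exact permutation test used here, which was two-sided. The ratio of *mepA* to *meaA* was 1.85 to 2.03 in WT, 1.43 to 1.503 with the label Δ*laeA* and 0.645 to 0.658 with the label Δ*veA*. It was thus lower than in WT by 1.56 on the log2 scale in Δ*veA* (3 of 3 libraries below every WT library, p = 0.1, exact permutation test) and by 0.40 in Δ*laeA* (3 of 3, p = 0.1, exact permutation test). The ratio of *gdhB* to *gdhA* was lower than in WT in both mutants, by 1.68 in Δ*veA* and 1.57 in Δ*laeA* on the log2 scale (3 of 3 libraries each, p = 0.1 each, exact permutation test). The ratio in every mutant library was below that in every WT library, where it was 0.453 to 0.462. *gltA* to *gdhA* was lower by 0.53 in Δ*veA* and by 0.22 in Δ*laeA* (3 of 3 libraries each, p = 0.1 each, exact permutation test). The ratio of *glnA* to *gltA* was lower by 0.93 in Δ*veA* (3 of 3 libraries, p = 0.1, exact permutation test). In Δ*laeA* it overlapped with WT, with a log2 difference of -0.027 (p = 0.7, exact permutation test). The p-values adjusted over these 8 comparisons by the Benjamini-Hochberg method were 0.114 for 7 of them and 0.7 for the last.

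**Figure D3:**
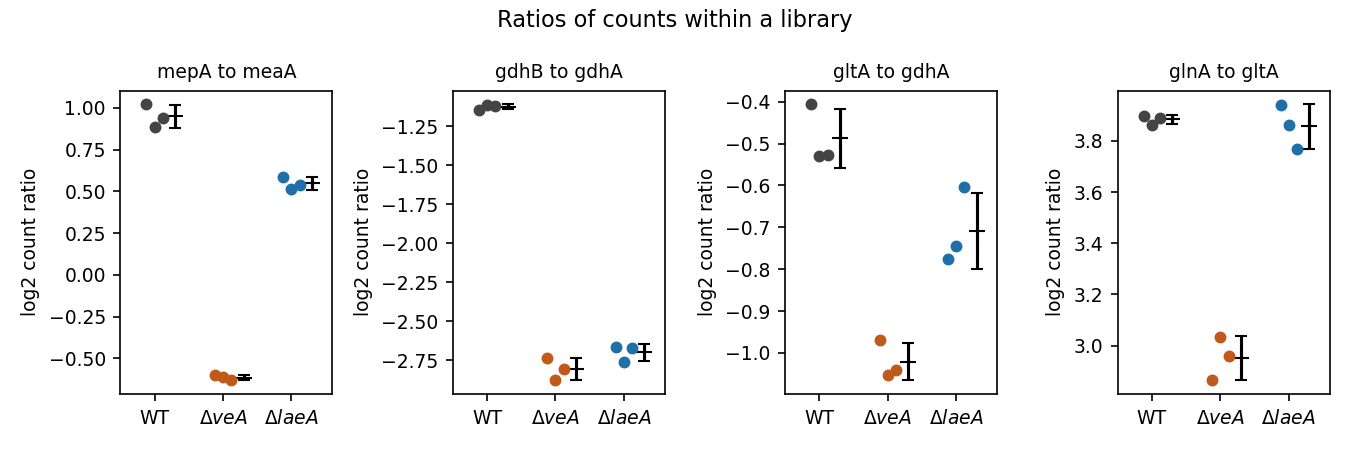
Log2 ratio of the counts of a pair of genes in the same library (vertical axes, each with its own range and not from 0) for WT and the labels Δ*veA* and Δ*laeA*, with the mean and the SD beside the 3 points. Both mutants lie below WT in the first 3 panels, and for *glnA* to *gltA* Δ*veA* alone does.

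The scaling between libraries bears on these values. When library totals alone set the scale, the median change over every gene tested was, as log2 fold change, -0.26 in Δ*veA* and -0.33 in Δ*laeA* in place of a value near 0. New scale factors shift the log2 fold changes of all genes alike, so that the position of the 6 genes relative to this median is the same by construction and no support for their values. Which of them pass 2-fold, or lie above WT at all, does depend on the scale. With library totals alone, *gdhA* (1.63) and *gltA* (1.10) were above 2-fold in Δ*veA*, and none of the 6 was in Δ*laeA*, where *meaA* was highest (0.98). Whether the total mRNA per cell differed between the strains was not measured.

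**Figure D4:**
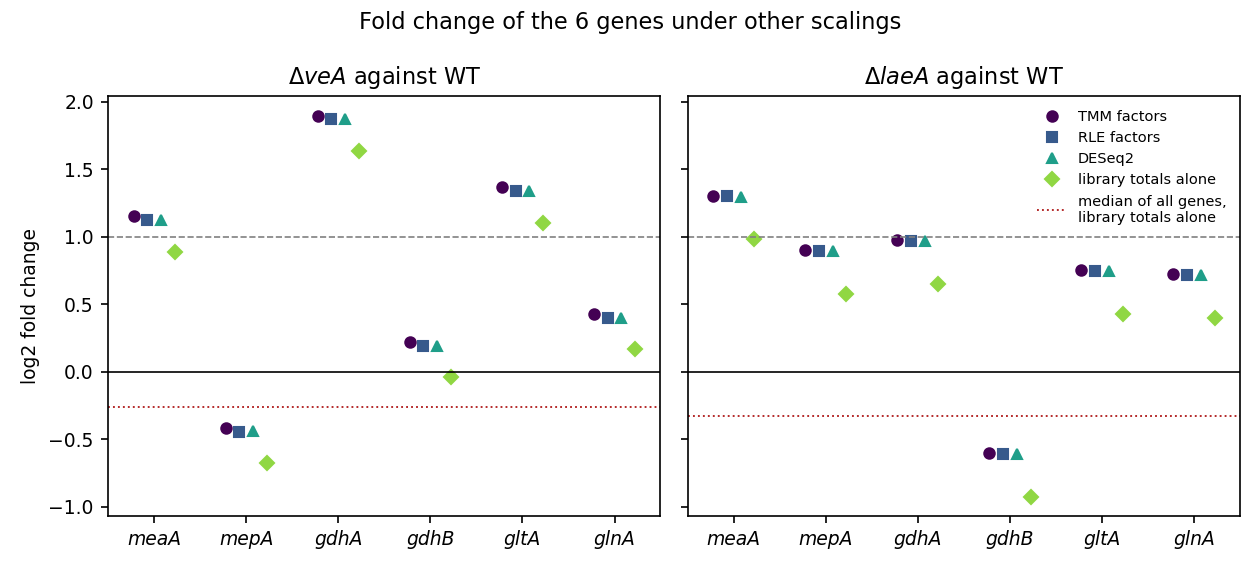
Log2 fold change against WT (vertical axis) of the 6 genes in the libraries labelled Δ*veA* and Δ*laeA*, by TMM factors, RLE factors, DESeq2 and library totals alone. The dotted line is the median of all genes with library totals alone (-0.26 and -0.33), and the values with totals alone lie lower than the others by about this amount.

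The pattern of each gene over the 9 libraries was set beside that of 3147 other genes with a mean of at least 50 CPM, by the root mean square distance of their log2 CPM after the WT mean of each gene was taken off. Among the 6 genes themselves, *gdhA* and *gltA* were closest (distance 0.34), followed by *meaA* and *gltA* (0.35). *mepA* and *gdhB* were far from *gdhA*, with a distance of 1.33 each. Over all genes, AN0858 was nearest to *meaA* (0.055), AN6091 to *mepA* (0.079), AN7722 to *gdhA* (0.067), AN8565 to *gltA* (0.050) and AN4206 to *glnA* (0.0325). The gene nearest to *gdhB* was *hmg1* (AN3817), at 0.088. Among genes with a RefSeq symbol, *utr2* was nearest to *meaA* (0.081), *sur2* to *mepA* (0.089), *sun1* to *gdhA* (0.118), *imeB* to *gltA* (0.067) and *aclA* to *glnA* (0.052). These distances are descriptions of 3 groups of 3 libraries and carry no test. They say nothing of function.

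Around these genes, 27 others were read, called genes of nitrogen use for short. The list also took in the supply of 2-oxoglutarate, the use of glutamine and the control of amino acid synthesis. A symbol in the RefSeq table is carried by 15 of them, which are described by name. The other 12 have no symbol there and are given by identifier, with no role. Of the 27, Δ*veA* had 6 DEGs that rose and 2 that fell, and 6 rose and 1 fell in Δ*laeA*. These counts are 8 of 27 and 7 of 27, beside 33.6% and 24.4% of all genes. By direction, 13.6% of all genes rose and 19.9% fell as DEGs in Δ*veA*, and 9.90% rose and 14.5% fell in Δ*laeA*. The list had a median log2 fold change of 0.415 (Δ*veA*) and 0.37 (Δ*laeA*). Of the 15 named genes, 3 rose and 1 fell as DEGs in Δ*veA*, and 4 rose and 1 fell in Δ*laeA*. The same shares of all genes stand beside these counts. Of those without a symbol, AN0418 (log2 fold change 1.45), AN1003 (1.455) and AN0565 (1.81) rose as DEGs and AN1812 (-1.85) fell as a DEG in Δ*veA*. AN0418 (1.57) and AN0399 (1.46) rose as DEGs in Δ*laeA*.

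*crnA*, *niaD* and *niiA*, of the uptake of nitrate and its reduction to ammonium, rose in both mutants. *crnA*, the nitrate transporter gene, had a mean of 73.8 CPM in WT, 301 CPM with the label Δ*veA* and 227 CPM with the label Δ*laeA*, with log2 fold changes of 2.03 and 1.62 (edgeR adjusted p = 2.35e-26 and 2.64e-23). *niaD*, the nitrate reductase gene, had log2 fold changes of 0.69 and 1.01. The latter was below 2-fold by library totals alone (0.69), in a fit of only the groups compared (0.9991) and when WT replicate 2 (0.9973) or 3 (0.99) was left out. *niiA*, the nitrite reductase gene, whose enzyme yields ammonium, had 0.52 and 1.565. The activator genes changed less. *nirA*, the activator of the nitrate genes, had log2 fold changes of 0.44 and 0.27, and with library totals alone the latter was -0.056. *areA* was lower than WT in Δ*veA* (-0.39, edgeR adjusted p = 9.6e-07) and higher in Δ*laeA* (0.37, edgeR adjusted p = 1.73e-06, but 0.048 and 0.465 with library totals alone), with mean values of 80.5 (WT), 61.3 (Δ*veA*) and 104 (Δ*laeA*) CPM. Its difference between the mutants was -0.76 on the log2 scale. The study places *areA* in the core section of its VeA network and *niiA* in that of LaeA, as direct or putative direct targets.

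Other sources of glutamate include proline, ornithine and 4-aminobutyrate. *prnB*, the proline permease gene, was a DEG that rose in both mutants, with 4 to 10 counts per library for WT, 77 to 125 for the label Δ*veA* and 33 to 56 for the label Δ*laeA*. *prnC*, which encodes the enzyme that gives glutamate as the last step of proline breakdown, was a DEG that fell in both, with log2 fold changes of -2.15 and -2.96. *prnD*, the proline oxidase gene, had -0.395 and 0.12, and the test was not passed in Δ*laeA* (edgeR adjusted p = 0.363). *car2*, named after the yeast ornithine aminotransferase gene, had 0.10 and 0.16. The value in Δ*veA* did not pass the test (edgeR adjusted p = 0.135) and was 0.030 when Δ*veA* replicate 1 was left out and 0.16, past the test, when replicate 3 was. That in Δ*laeA* passed (edgeR adjusted p = 0.0292), but not without WT replicate 2 (0.0755) or 3 (0.132) or Δ*laeA* replicate 3 (0.144). With library totals alone these *car2* values were -0.16 and -0.17. *gatA*, the 4-aminobutyrate transaminase gene, rose in Δ*veA* (0.47) and had -0.057 in Δ*laeA* (edgeR adjusted p = 0.388). With library totals alone the value of *gatA* in Δ*laeA* was -0.38 and passed the test (edgeR adjusted p = 6.3e-07).

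The carbon skeleton of glutamate, 2-oxoglutarate, comes from the citric acid cycle. *cit1*, the citrate synthase gene, was a DEG higher with the label Δ*veA*, at 940.5 CPM against 390.4 CPM in WT (log2 fold change 1.27, edgeR adjusted p = 4.51e-23), and it rose to 746 CPM with the label Δ*laeA* (0.935). *acoA*, the aconitase gene, had 0.22 in Δ*veA*, which was -0.042 with library totals alone, and -0.23 in Δ*laeA*. Among genes whose products use the amide of glutamine, *gfa1*, which serves the synthesis of amino sugars for chitin, fell in Δ*veA* by a log2 fold change of -0.91, and *trpC*, of tryptophan synthesis, rose there by 0.69. In Δ*laeA* these values were -0.12 and 0.30. The value of *trpC* was -0.022 with library totals alone, and that of *gfa1* (edgeR adjusted p = 0.023) did not pass the test without WT replicate 2 (-0.074), WT replicate 3 (-0.11), Δ*laeA* replicate 1 (-0.099) or Δ*laeA* replicate 2 (-0.11). *cpcA*, the activator of amino acid synthesis under starvation, was lower than WT in both mutants (-0.92 and -0.54).

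**Figure D5:**
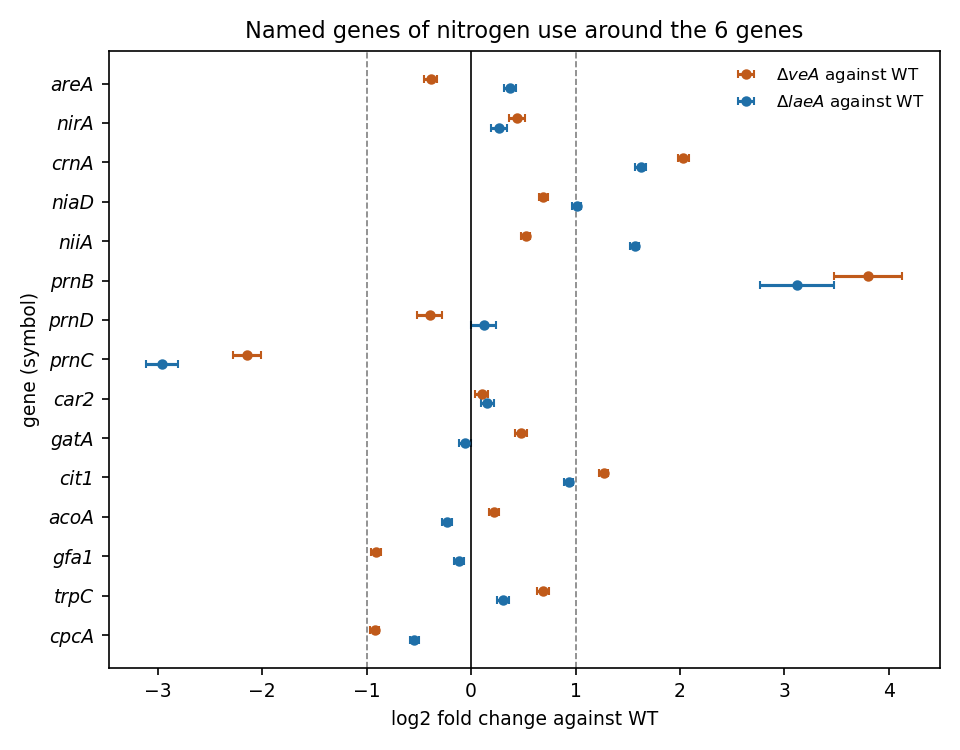
Log2 fold change against WT (horizontal axis) of the 15 named genes of the list in the libraries labelled Δ*veA* and Δ*laeA*. Bars are the standard error, and dashed lines stand at 2-fold. Besides nitrogen use, the genes serve 2-oxoglutarate supply, glutamine use and control of amino acid synthesis. *prnB* is the highest and *prnC* the lowest in both mutants.

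Genes that mark other cell types were read as well, since cultures of hyphae can hold developing cells. Of 9 markers of conidiophores, conidia and sexual development, 6 fell as DEGs in Δ*veA* and 5 in Δ*laeA*, and 0 rose as DEGs, beside 19.9% and 14.5% of all genes that fell as DEGs. *brlA* and *rodA*, of conidiophores and conidia, and *esdC* and AN7388, of sexual development, fell as DEGs in both mutants. Others did not follow them. *yA*, of the conidial pigment, passed the test in neither mutant (edgeR adjusted p = 0.363 and 0.648), and *wetA* did not in Δ*laeA* (edgeR adjusted p = 0.532). *nsdD*, an activator of sexual development, did not pass in Δ*veA* (log2 fold change -0.069, edgeR adjusted p = 0.272) and was higher than WT in Δ*laeA* (0.33, edgeR adjusted p = 5.21e-06). The sum of the 6 markers of conidiophores and conidia reached 51.4 to 53.2 CPM for WT, 14.1 to 16.8 for Δ*veA* and 19.6 to 22.25 for Δ*laeA*. The sum of the 3 markers of sexual development reached 2070 to 2129 CPM for WT, 157 to 178 for Δ*veA* and 462 to 490.0 for Δ*laeA*, and its fall was mainly that of *esdC*, with means of 1866, 70.6 and 342 CPM. The study reports binding of VeA and of LaeA at the *esdC* promoter. Whether the level of *esdC* in these strains, and with it this sum, follows the number of cells in sexual development was not tested. No marker was at 0 in all libraries of a group, although *rodA*, the conidial hydrophobin gene, was down to 6 to 20 counts per library with the label Δ*veA* and 6 to 12 with the label Δ*laeA*. The part of these differences in the results on the genes of ammonium use was not tested.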

How the data were processed

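RNA-seq was made from 9 libraries of Vege, 3 each of WT, Δ*veA* and Δ*laeA*, grouped by genotype as labelled. The authors used HISAT2 2.1 for mapping and featureCounts 1.5.0, at its defaults, to count reads on genes, and they deposited these read counts without normalization. The libraries were strand-specific, but no strand option beyond the defaults is named, and the default of featureCounts does not use strand, so that reads of overlapping genes on opposite strands may not be told apart. The submitters' processing notes also name DESeq2 1.6.3. Each single-library file was checked and holds the same values as its column in the joint table. Of the rows, 31 repeat an identifier. Replicates differed beyond counting noise in every pair (chi-square per degree of freedom 2.89 to 13.7). Differences in depth limit precision, and counting error is smallest in the deepest libraries.

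Counts were normalized by TMM (factors 1.14 to 1.15 in WT and 0.913 to 0.961 in the mutants), filtered by filterByExpr and tested in 1 model of all libraries with the quasi-likelihood test of edgeR 4.0.16 (R 4.3.3, robust dispersions), with Benjamini-Hochberg adjustment over 9481 genes. Standard errors come from the F statistic. DEGs were called as in the paper, at over 2-fold with the adjusted p under 0.05. The procedure was tested on simulated data. Replicate numbers come from the labels, which tie them to nothing shared. Deviations from the group means of same-numbered libraries correlated at 0.105 to 0.385 in all 3 pairs of WT with Δ*veA*. These were therefore taken as paired in the check of that comparison, although 2 pairs with other numbers were also over 0.1. WT replicate 2 correlated more with Δ*veA* replicate 3 (0.207) than with replicate 2 (0.187). WT replicate 3 correlated slightly more with Δ*veA* replicate 2 (0.109) than with replicate 3 (0.105). Same-numbered libraries correlated over 0.1 in 1 of 3 pairs of WT with Δ*laeA* and 0 of 3 between the mutants. Over all groups, the best match had the same number in 7 of 18 combinations, so that the numbers are not shown to be pairs. The members and lists were chosen with earlier results of these data known.

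Names come from the rule for the 6 genes and, for other genes, from a RefSeq table (ASM1142v1). The study cites another assembly record, so that coordinates and lengths were left out. All 6 genes matched a locus tag, and 1 (*glnA*) carries a symbol there. The genes named are the 6, the deleted genes, the genes of the list of nitrogen use that were DEGs in either mutant and the nearest genes by pattern. The named genes of that list that were not DEGs are given too, and were named after their values were seen. Symbols of yeast type (*car2*, *cit1* and *gfa1*) were taken as the same genes. The rule also took in symbols that start with mep, and *mep20*, which is named for a metalloproteinase, was left out. Alternatives were DESeq2 1.42.0, RLE factors, library totals alone, no filter, only the groups compared, a replicate block, such a block with only the groups compared (added after the data were seen), no fold-change minimum and each library left out. Python 3.11.15, pandas 2.3.3, scipy 1.17.1 and matplotlib 3.10.9 were used for ratios and plots.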

Additional observations from a re-analysis of the deposited data

How the results depend on the processing

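The counts of DEGs among the 6 genes (3 in Δ*veA*, 1 in Δ*laeA* and 1 between the mutants) were unchanged with DESeq2, RLE factors, no filter, only the groups compared and the replicate block, and with each library left out in turn (3 to 3, 1 to 1 and 1 to 1). With library totals alone they were 2, 0 and 1. Without the fold-change minimum, all 6 passed in each comparison (5 higher and 1 lower in Δ*veA*, 5 higher and 1 lower in Δ*laeA*, 3 and 3 between the mutants), as did 7601, 6960 and 6645 of all genes against 3181, 2312 and 1740 DEGs. For the 27 genes of nitrogen use, 26 then passed in Δ*veA* (17 higher, 9 lower) and 24 in Δ*laeA* (18 higher, 6 lower), and library totals alone gave 4 DEGs that fell in Δ*veA*. Their DEG counts were 8 to 9 and 6 to 7 with 1 library left out.

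Library totals alone turned the direction of *gdhB* (-0.042), AN2944 (-0.018), *car2* (-0.16) and *acoA* (-0.042) in Δ*veA*, and of *nirA* (-0.056), *prnD* (-0.20), *car2* (-0.17), AN9470 (-0.20), AN10079 (-0.28) and *trpC* (-0.022) in Δ*laeA*, where the median of all genes moved down too. Adding 1 count left the ratios within 1 SD, which is no test where every count is 2057 or more. The *glnA* to *gltA* ratio in Δ*laeA* ranged from -0.069 to 0.017 with 1 library left out, the latter without Δ*laeA* replicate 3.

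With the replicate block the counts of DEGs among the 6 genes were 3, 1 and 1, and over all genes 3171, 2306 and 1726. For Δ*veA* with WT the numbers were taken as pairs, although for WT replicates 2 and 3 libraries with another number correlated more. There the block changed no call of the 6 genes or the 27 genes of nitrogen use. This held also in a fit of only the groups compared, an alternative chosen after seeing the data. For the other comparisons the numbers were not taken as pairs. There the block changed no call in the fit of all libraries, and with only the groups compared *niaD* in Δ*laeA* was just below 2-fold (0.9997), as it was there without the block (0.9991).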
